A study of Mus musculus with 19 samples.

Results

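Gene expression was compared between the granulocytic suppressor cells (G-MDSC) that collect in the spleen of mice bearing tumours, on 4 arrays (G-MDSC_1 to G-MDSC_4), and neutrophils from naive bone marrow (NN), on 7 arrays (NN_1 to NN_7). These 11 arrays were chosen by their sample titles from a series of 19, whose other samples were neutrophils from tumours with and without an inhibitor of TGF-beta receptor signalling. Each array measured the RNA of one preparation by hybridisation to bead-bound probes, with 1 colour and 25697 probes. The comparison differs in tissue (spleen against marrow) and in tumour status at once, so the effect of either cannot be told apart. The labels used here give no strain, age, tumour line, sorting gate or treatment for these 2 groups, and note only "clonal mouse" for every sample. Nothing in them says that arrays of a group came from separate animals, so p-values measure the spread between these samples.

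Neutrophils are made in the marrow, where dividing precursors fill azurophil, then specific, then gelatinase granules, before mature cells leave through CXCR2 and are held back by CXCR4. In tumour-bearing mice neutrophils accumulate in the spleen, and those able to suppress T cells are called G-MDSC. Their described means of suppression include arginase, reactive oxygen species, prostaglandin E synthesis and PD-L1.

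The arrays fell into a pair of background classes. The lowest signal on an array was between 10.3 and 17.7 on NN_6, NN_7 and all 4 G-MDSC arrays, and between 53.1 and 65.5 on NN_1 to NN_5. The labels name no batch for this, and 2018 genes differed between the low- and high-background NN arrays themselves. Every difference was therefore fitted a second time with background class as a term, which sets the G-MDSC arrays against NN_6 and NN_7 with the spread of all 11 arrays. A gene is said to have risen or fallen only where both fits called it in the same direction at an adjusted p under 0.05. Folds are against all 7 NN arrays. A fold against NN_6 and NN_7, called the low-background fold, is added for the leading genes and where it differs by over 1.5 times. Across genes the arrays correlated at 0.976 to 0.993 within NN and at 0.873 to 0.899 between the groups. G-MDSC_2 to G-MDSC_4 correlated at 0.989 to 0.995 with each other, and G-MDSC_1 stood apart from them at 0.949 to 0.961. Both fits were repeated without G-MDSC_1 (chosen after seeing the data), and 3597 of the 3698 genes called in both fits were again called in both in the same direction.

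Of 8643 genes tested, 4999 (57.8%) passed the limma fit after Benjamini-Hochberg adjustment, 2458 (28.4%) higher and 2541 (29.4%) lower in G-MDSC. With background class as a term 4077 passed (47.2%), 2019 (23.4%) higher and 2058 (23.8%) lower. Within the low-background arrays alone 39.7% passed. Both fits called 3698 genes (42.8%), 1815 (21%) higher and 1883 (21.8%) lower, and these shares are the background for the gene lists below. Without G-MDSC_1 they became 23.9% and 25.1%. For 20.4% of genes every G-MDSC array lay above every NN array, and for 21.2% below. At 2-fold or more in both fits, 819 genes (9.48%) were higher and 903 (10.4%) lower. With arrays centred on their medians instead of quantile normalized, the median over all genes moved to 0.26 log2 and 67.8% instead of 49.2% of called genes were higher. In the fit with background class that median was 0.03 log2. Levels are log2 intensities after background correction with an offset of 16, and the scale compresses differences at its bright end.

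**Figure D1:**
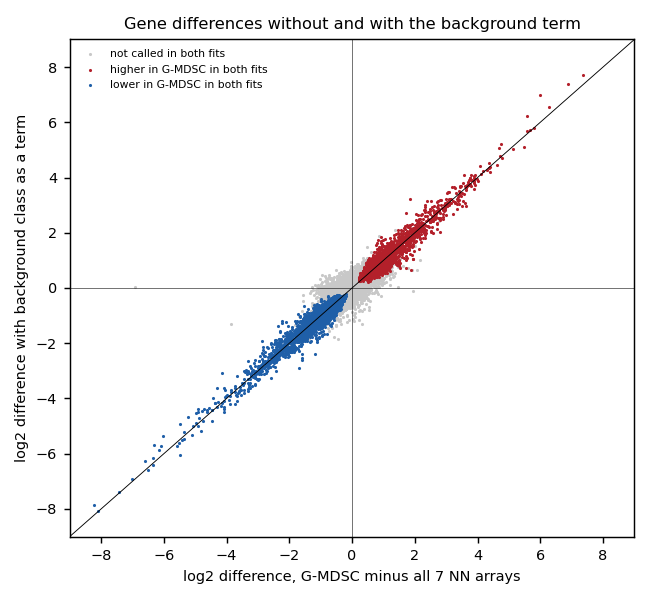
Each point is 1 of 8643 genes, with the log2 difference against all 7 NN arrays on the x axis and the log2 difference with background class as a term on the y axis. The 1815 genes in red and 1883 in blue were called higher or lower in both fits, and the line marks equal values.

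The labelled cell type was checked first. The neutrophil genes S100a8 and S100a9, which encode the subunits of calprotectin, were among the brightest genes of both groups. S100a8 read 15.53, 15.33, 15.78 and 15.60 on G-MDSC_1 to G-MDSC_4 and 15.75, 15.84 and 15.90 (lowest, median and highest) on the NN arrays, all near the top of the scale. It was called only without the background term (1.21-fold lower, adjusted p = 0.00816 and, with the term, 0.0749). S100a9 fell 1.38-fold (low-background fold 1.19), which was not called after median centring (adjusted p = 0.295). Lcn2 and Retnlg, abundant transcripts of mature neutrophils, read 15.95 ± 0.02 (SD, n = 4) against 15.98 ± 0.02 (n = 7) and 15.79 ± 0.07 against 15.87 ± 0.04, and neither passed either fit. Both genes also lay near the top of the scale in both groups, which limits any difference. Csf3r, the receptor for G-CSF, rose 1.79-fold to 14.95, 15.46, 15.41 and 15.46 from 14.26, 14.47 and 14.68, and the groups did not overlap. Over the neutrophil list 4 of 17 tested genes rose and 7 fell, 5 after median centring. Ly6g, which defines mouse neutrophils, had no probe among those tested.

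**Figure D2:**
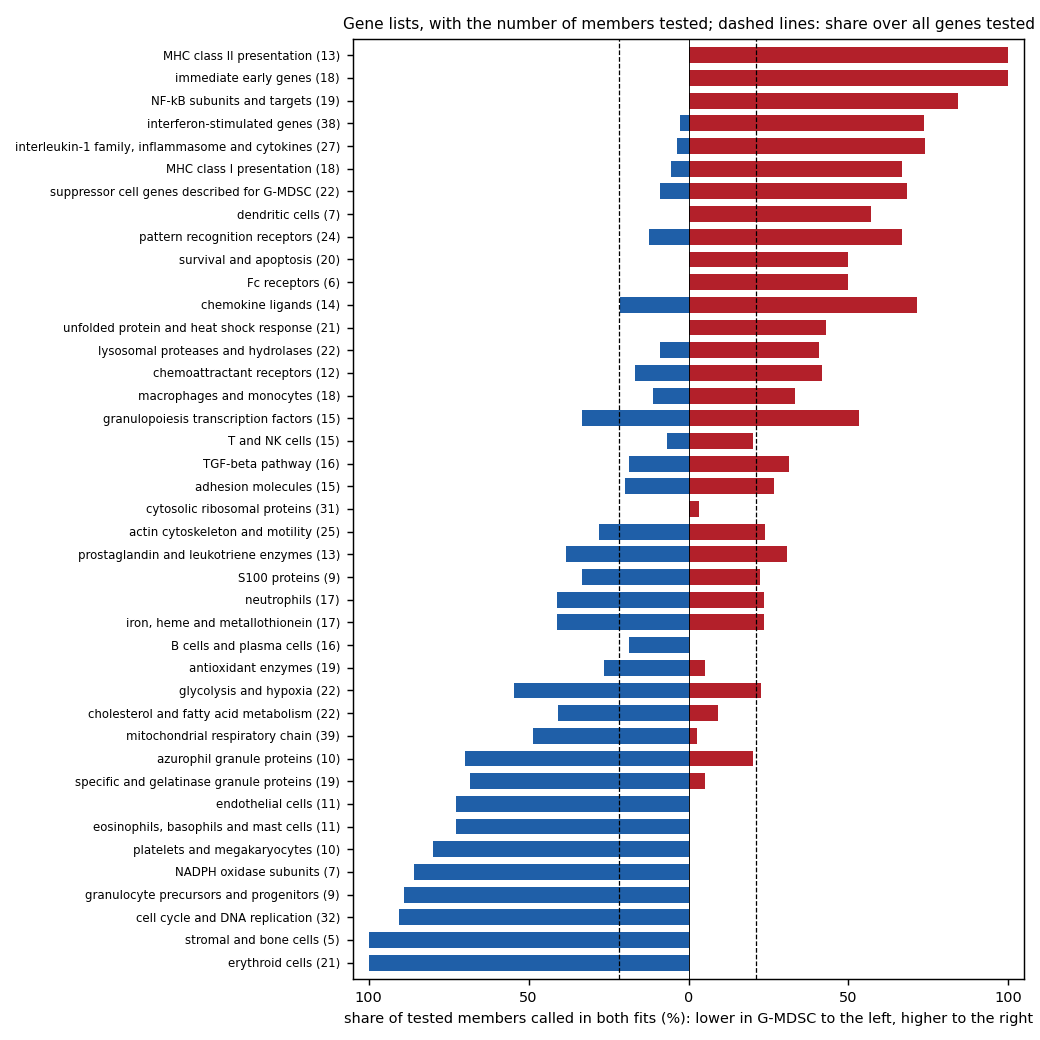
For each gene list the bar to the right is the share of tested members (number in brackets) that rose in both fits and the bar to the left the share that fell. Dashed lines mark the shares over all 8643 genes, 21% and 21.8%.

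The largest rises were immediate early genes, which are induced within minutes of a stimulus, and chemokines. The immediate early list holds transcription factors and other genes, such as the phosphatase gene Dusp1. All 18 tested immediate early genes rose, with a median log2 difference of 2.86 (3.04 with the background term, against -0.01 and 0.02 over all genes). Of these 18, 4 were detected on no NN array and passed the detection filter through G-MDSC alone. Fosb, an AP-1 subunit, read 14.16, 11.86, 11.64 and 12.78 on G-MDSC_1 to G-MDSC_4 and 4.49, 4.91 and 6.76 on the NN arrays, where 2 of 7 arrays detected it. G-MDSC_1 was the highest, and the lowest G-MDSC array stood far above the highest NN array. The difference was 165-fold (low-background fold 209, log2 difference 7.37 ± 0.47 SE, adjusted p = 1.04e-08 and 1.48e-06). Egr1, a zinc-finger factor, read 15.56, 15.37, 15.58 and 15.52 in G-MDSC, near the top of the scale, and 8.47, 8.71 and 11.71 in NN. Its NN arrays were spread widely, with NN_6 and NN_7 the lowest, and the fold was 63.4 (low-background 128). Egr2 rose 24.4-fold and Atf3, a stress-induced factor, 50.7-fold. The log2 difference of Atf3 was 5.66, and 4.91 without G-MDSC_1. Junb, an AP-1 subunit, rose 12.2-fold, with G-MDSC values of 15.80 to 16.01 at the top of the scale, which limits this fold.

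Genes of NF-kB signalling moved the same way, with 16 of 19 higher and none lower. Regulators of the pathway were among the largest rises of this list. Tnfaip3 (A20), a deubiquitinase that ends NF-kB signalling, read 14.04, 11.97, 12.67 and 12.77 in G-MDSC against 8.36, 8.69 and 8.91 in NN, a 18.1-fold rise (low-background fold 18.9). Nfkbiz, a nuclear inhibitor family member, rose 14.9-fold and Nfkbib 10.5-fold. Ier3, an NF-kB target, rose 13.5-fold with little spread, from 10.58, 10.81 and 11.12 to 14.65, 14.30, 14.66 and 14.61. Icam1, the ligand of neutrophil integrins, rose 5.95-fold. Sod2 and Nfkbie did not pass both fits, at 0.76 and 0.33 log2.

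Among chemokine ligands 10 of 14 rose and 3 fell. Of these 14, 3 were detected in 1 group alone, so the detection filter fixed their direction. The rises were led by chemokines that draw neutrophils and monocytes. Cxcl2, a CXCR2 ligand, read 14.66, 13.33, 13.52 and 13.44 in G-MDSC and 5.35, 6.88 and 8.06 in NN, detected on 6 of 7, a 119-fold difference (low-background fold 167, log2 difference 6.89 ± 0.46 SE, adjusted p = 1.55e-08 and 1.34e-06). Ccl3 and Ccl4, inflammatory chemokines, rose 77.6-fold and 55.2-fold. Ccl4 read 14.71, 12.22, 12.38 and 12.56 against 6.68, 7.29 and 7.59, so that G-MDSC_1 lay well above the other G-MDSC arrays and all of them above NN. The falls were Ppbp and Pf4, which platelets store, and Cxcl12, the marrow stromal ligand of CXCR4. Cxcl12 was detected on none of the G-MDSC arrays and was at least 57.9-fold lower there. Its fitted log2 difference was -6.32, -5.67 with the background term, and its other probes gave smaller differences, down to -1.74. Ccl2 and Ccl17 were detected on 2 and 1 G-MDSC arrays and on no NN array, too few to be tested. The promoters of a pair of these inducible chemokines are printed below, since they show where the NF-kB core lies, taken here as GGG, any 3 bases and TTCC (150 bases up to the base before the start, RefSeq, build GRCm38.p6, 5′ to 3′ on the gene's strand, matches on either strand in capitals).
Cxcl2: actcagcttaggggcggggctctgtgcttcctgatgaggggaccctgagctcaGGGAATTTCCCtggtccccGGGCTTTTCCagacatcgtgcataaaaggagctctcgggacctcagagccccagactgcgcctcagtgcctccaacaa
Cxcl10: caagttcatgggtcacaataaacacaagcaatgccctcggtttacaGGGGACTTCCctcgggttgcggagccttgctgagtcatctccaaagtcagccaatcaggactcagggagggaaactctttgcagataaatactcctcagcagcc
The Cxcl2 window is chr5:90903749-90903898 on the plus strand and the Cxcl10 window chr5:92348890-92349039 on the minus strand. Cxcl2 has 3 matches, 2 of them overlapping, the first beginning 97 bases before the start, and Cxcl10 has 1, beginning 104 bases before it. In windows of 300 bases the core was found in 7 of 18 promoters of the NF-kB genes tested (38.9%), in 4 of 10 of the chemokines (40%) and in 5.56% of all 32851. A match describes letters and shows no binding.

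**Figure D3:**
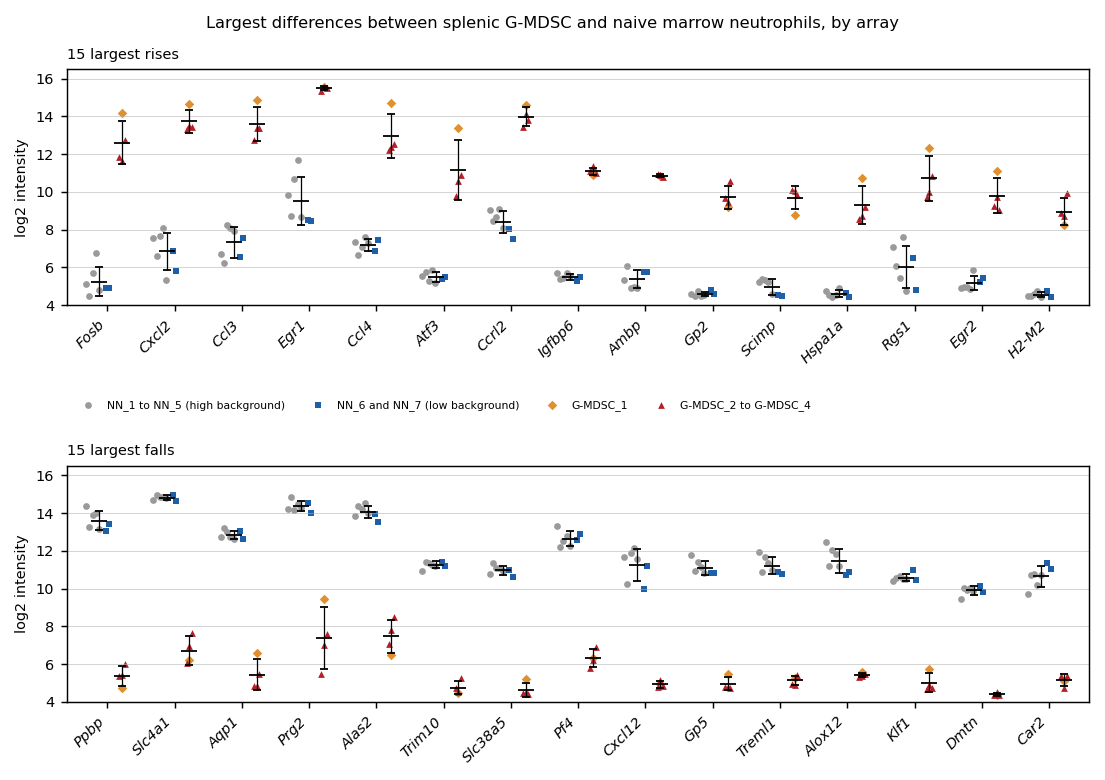
Log2 intensity on each of the 11 arrays for the 15 largest rises (top) and 15 largest falls (bottom) called in both fits without overlap between groups. Horizontal marks and bars are the mean ± SD of 7 NN and 4 G-MDSC arrays. G-MDSC_1 is highest for Fosb, Cxcl2, Ccl3, Ccl4 and Atf3, and the other G-MDSC arrays still lie above every NN array.

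The remaining large rises came from genes of varied function. Ccrl2, an atypical receptor that presents chemerin, rose 48.0-fold (low-background fold 75.1) from 7.50, 8.44 and 9.11 to 14.60, 13.44, 14.14 and 13.81. Igfbp6, an IGF-binding protein, read 10.88 to 11.37 in G-MDSC and 5.27, 5.49 and 5.70 in NN (3 of 7 detected), a 47.9-fold difference (low-background fold 52.0) that G-MDSC_1 shared with the others. Ambp, the precursor of the inhibitor bikunin, was equally even, 44.5-fold higher at 10.82, 10.97, 10.88 and 10.79 against 4.90, 5.35 and 6.08, detected on 3 NN arrays. G-MDSC_1 was close to the other G-MDSC arrays for both genes. Gp2, Hspa1a and H2-M2 were detected on no NN array, and were at least 19.5-fold, 14.6-fold and 11.5-fold higher. Gp2 is a glycoprotein known from pancreas and intestinal M cells, Hspa1a the inducible heat shock protein and H2-M2 a non-classical class I gene. Scimp, an adaptor of Toll-like receptors, rose 26.6-fold and Rgs1, which dampens chemokine receptor signalling, 25.6-fold. They were detected on 1 and 4 of the 7 NN arrays.

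Cytokine genes rose as well: 20 of 27 of the interleukin-1, inflammasome and cytokine list rose and 1 fell. Il1b, the main inflammatory IL-1, was already bright in NN at 12.86, 13.60 and 13.75 and read 15.75, 15.61, 15.80 and 15.64 in G-MDSC, 4.96-fold higher (low-background fold 4.86, log2 difference 2.31 ± 0.15 SE, adjusted p = 1.48e-08 and 3.42e-06). Osm, oncostatin M, showed the same pattern, with 15.33, 15.18, 15.34 and 15.16 against 12.46, 12.72 and 13.15 and a fold of 5.79. Csf1, the macrophage growth factor, rose 12.4-fold (low-background fold 7.80), detected on 5 NN arrays. Socs3, the feedback inhibitor of STAT3 signalling, rose 14.8-fold from 10.44, 10.64 and 11.07 to 14.33, 14.78, 14.61 and 14.56. Il1rap and Il1r2, the co-receptor and decoy receptor of IL-1, rose 7.38-fold and 5.03-fold. Vegfa, at -0.10 log2, did not pass either fit.

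Genes described for G-MDSC gave a divided picture. Of 22 tested, 15 rose and 2 fell, and the list was taken from what is known of such cells. Of these 22, 4 were detected in 1 group alone, so the detection filter fixed their direction. Wfdc17 rose 15.6-fold, from 10.32, 10.51 and 11.23 to 14.29, 14.80, 14.77 and 14.69 (adjusted p = 2.28e-10 and 9.57e-08). Cd274, which encodes PD-L1, rose 10.5-fold: it read 11.92, 10.84, 10.93 and 11.29 in G-MDSC and 7.65, 7.81 and 8.07 in NN. Ptgs2 (COX-2), the inducible enzyme of prostaglandin synthesis, was detected on all G-MDSC arrays and on no NN array, and was at least 8.04-fold higher. Ptges, the prostaglandin E synthase that commonly acts after it, went the other way, detected on all 7 NN and no G-MDSC arrays and at least 2.58-fold lower. Arg1, arginase 1, was detected on no array of either group, and Nos2, the inducible nitric oxide synthase, on 1 NN array, so neither was tested. Hif1a, at 1.78 log2, was not called with the background term (0.73, adjusted p = 0.3).

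The genes of the phagocyte NADPH oxidase, the source of the neutrophil's superoxide, were lower. Of 7 tested 6 fell and none rose, although only 3 were called lower in both fits after median centring. Ncf1 (p47phox) read 10.23, 10.42, 10.55 and 10.33 in G-MDSC and 12.05, 12.23 and 12.46 in NN, a 3.62-fold fall (low-background fold 3.71) with no overlap. Cybb (gp91phox), the catalytic subunit, was dim on this array type and was detected on all 7 NN arrays and 1 G-MDSC array. It read 4.90, 4.82, 5.15 and 5.50 against 6.25, 6.78 and 6.88, 3.06-fold lower. Hvcn1, the proton channel that sustains the oxidase, fell 4.83-fold (log2 difference -2.27, and -2.95 without G-MDSC_1), with G-MDSC_1 at 11.84 close to NN and the other 3 arrays at 9.38 or lower. B cells also express Hvcn1, and B-cell markers were high on G-MDSC_1, and their part in its value was not tested. Rac2 fell 1.88-fold. Among antioxidant enzymes 1 of 19 rose and 5 fell (26.3%, against 21.8% over all genes). The falls were led by Prdx2, at 13.3-fold lower, which red cells carry in quantity. The other probe of Prdx2 differed by -1.45 log2. Gclm and Cat fell 2.75-fold and 2.72-fold.

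Azurophil granule genes, which promyelocytes transcribe, were mostly lower. Of 10 tested, 7 fell and 2 rose. Mpo, myeloperoxidase, read 8.77, 6.81, 7.35 and 7.40 in G-MDSC and 12.09, 12.55 and 13.24 in NN, 31.4-fold lower (low-background fold 29.6, log2 difference -4.97 ± 0.32 SE, adjusted p = 1.04e-08 and 2.80e-06). Elane, neutrophil elastase, fell 27.6-fold. Ctsg, cathepsin G, fell 33.7-fold and was detected on 1 of 4 G-MDSC arrays, and Prtn3, proteinase 3, fell 8.60-fold. G-MDSC_1 was the highest G-MDSC array for each of these 4 genes, and still below every NN array.

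Of 19 specific and gelatinase granule genes 13 fell and 1 rose, with a median of -1.02 log2 against -2.88 for azurophil genes. Several specific granule genes lie near the top of the scale, which limits their differences, so these medians do not rank the falls. Itgb2l, an integrin subunit of neutrophil precursors, fell 8.95-fold and Padi4, which citrullinates histones in extracellular traps, 6.43-fold. Mmp8, neutrophil collagenase, fell 5.09-fold and read 8.74, 9.54, 9.36 and 9.67 against 11.30, 11.54 and 12.19. Chil3 (Ym1), a chitinase-like protein, fell 5.23-fold. Camp, cathelicidin, read 14.51, 14.16, 13.85 and 14.27 against 15.41, 15.53 and 15.72, 2.54-fold lower, and Mmp9, gelatinase B, was 2.02-fold lower. Ltf, lactoferrin, reached the top of the scale in both groups (15.90, 15.35, 15.12 and 15.84 against 15.87, 15.92 and 15.95) and did not pass with the background term (adjusted p = 0.0203 and 0.102). The dimmer probe of Ltf was lower in G-MDSC by far more, at -3.21 log2. Cd177, a surface protein of neutrophils, fell 3.88-fold on its brighter probe, which also neared the top of the scale. Its other probe differed by -2.92 log2.

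Factors of granulocyte development moved in both directions, 8 of 15 higher and 5 lower. Cebpe, which drives specific granule formation, fell 7.91-fold from 13.43, 13.56 and 13.61 to 11.13, 10.31, 10.24 and 10.59, and Gfi1, a repressor needed for neutrophil formation, fell 4.33-fold. Klf4, a factor of the monocytic branch, rose 13.9-fold, and Klf2, a factor of quiescence, 3.97-fold. Cebpa did not pass with the background term, at -0.86 log2.

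**Figure D4:**
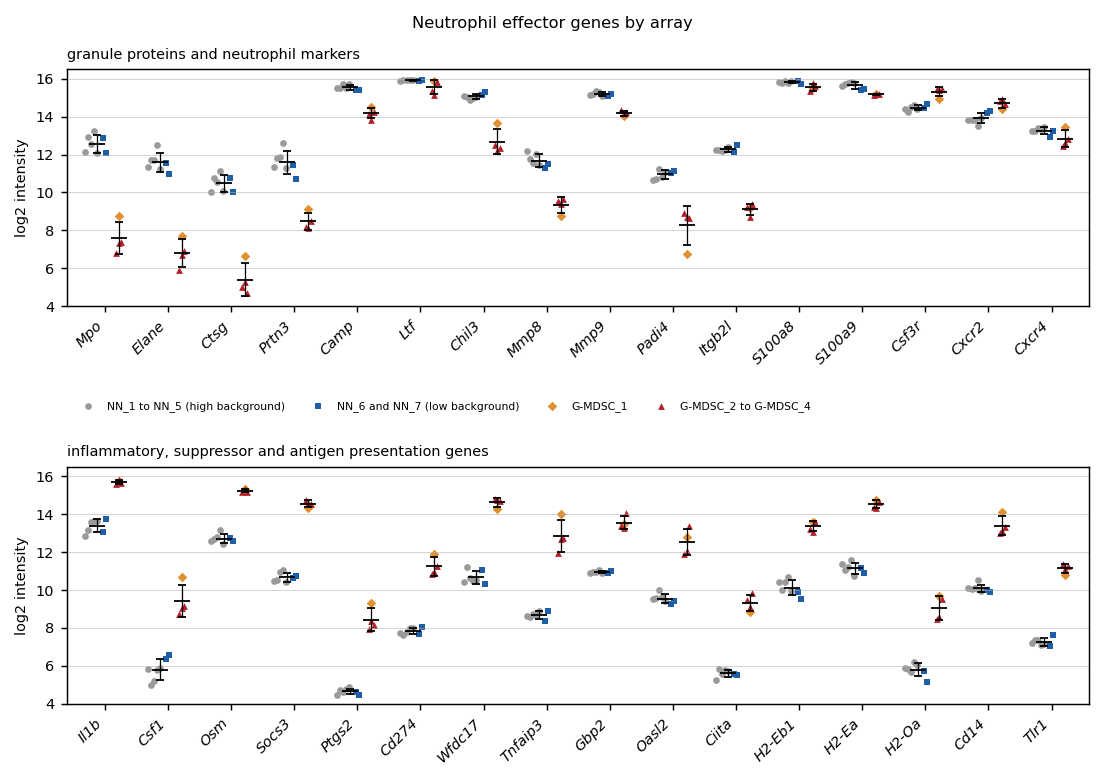
Log2 intensity on each array for granule and neutrophil marker genes (top) and for inflammatory, suppressor and antigen presentation genes (bottom). Marks and bars are the mean ± SD of 7 NN and 4 G-MDSC arrays. Mpo, Elane, Ctsg and Prtn3 lie lower in G-MDSC by 8.60-fold to 33.7-fold, while S100a8 and Ltf sit near the top of the scale in both groups.

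Cell cycle genes were low in G-MDSC. Of 32 tested 29 fell and none rose, with a median of -2.63 log2. Top2a, the topoisomerase of dividing cells, read 7.18, 6.67, 6.85 and 7.42 against 10.61, 10.86 and 11.21, 14.5-fold lower, with no overlap. Nusap1 and Kif11, which act on the spindle, fell 12.9-fold (-0.81 log2 on the probe that moved least) and 10.9-fold, and Prc1, of cytokinesis, 11.5-fold. Pcna, at 0.13 log2, was not called in both. The summed intensity of 14 markers of granulocyte precursors was 1029 to 2321 in G-MDSC and 11080 to 26656 in NN (11080 to 17289 on NN_6 and NN_7), and 8 of the 9 tested fell. Of these markers, 4 (Mpo, Elane, Ctsg and Prtn3) are azurophil genes too. Erythroid markers, described below, moved the same way. In bulk RNA fewer cells of a type and less RNA per cell cannot be told apart, and the part of precursors in the granule and cell cycle values was not tested.

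Genes of antigen presentation by MHC class II were higher throughout. All 13 genes tested rose, 1 of them detected on no NN array, with a median of 2.69 log2 (3.14 with the background term). Ciita, the master regulator of class II, read 8.84, 9.48, 9.09 and 9.83 in G-MDSC and 5.27, 5.55 and 5.81 in NN, 13.1-fold higher (low-background fold 13.6, log2 difference 3.71 ± 0.19 SE, adjusted p = 1.05e-09 and 2.00e-07). H2-Eb1, the E beta chain, read 13.60, 13.21, 13.08 and 13.62 against 9.53, 9.99 and 10.69, 9.55-fold. H2-Ea rose 10.6-fold and H2-Oa, of the class II modulator H2-O, 9.67-fold. All 4 G-MDSC arrays lay above every NN array for each of these 4 genes. Class II genes share an upstream block of boxes, of which the Y box (GATTGG, the reverse of a CCAAT box) binds NF-Y, and it stands in capitals in the promoters of H2-Eb1 and H2-Oa, cut as above.
H2-Eb1: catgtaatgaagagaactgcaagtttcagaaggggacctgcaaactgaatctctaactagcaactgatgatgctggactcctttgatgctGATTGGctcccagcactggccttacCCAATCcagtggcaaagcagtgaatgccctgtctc
H2-Oa: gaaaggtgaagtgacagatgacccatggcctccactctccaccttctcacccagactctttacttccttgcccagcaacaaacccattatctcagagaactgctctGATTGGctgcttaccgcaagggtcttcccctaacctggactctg
These windows are chr17:34305717-34305866 and chr17:34092229-34092378, both on the plus strand. H2-Eb1 holds 2 matches, the first beginning 60 bases before the start, and H2-Oa 1, beginning 44 bases before it. In the windows of 300 bases, 6 of 9 promoters of tested class II genes (66.7%) and 16.1% of all promoters hold these letters.

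Class II genes are also expressed by B cells and dendritic cells, whose markers moved as follows. The summed intensity of 17 B and plasma cell markers was 32570 on G-MDSC_1, 1727 to 2316 on the other G-MDSC arrays and 5566 to 12623 on NN. The class II sum was 116930 on G-MDSC_1 and 79750 to 110440 on G-MDSC_2 to G-MDSC_4, against 9355 to 17786 on NN. On G-MDSC_4 the class II sum was 110440 and the B-cell sum 2316, below every NN array, though that list includes precursor B-cell genes such as Vpreb1. Cd79a, of the B-cell receptor, read 12.55 on G-MDSC_1, 7.26 to 8.15 on the others and 9.23, 10.07 and 10.71 in NN. Dendritic markers summed to 3456 on G-MDSC_1, 1093 to 1415 on the other 3 and 492 to 630.1 on NN, and 4 of 7 rose. Without G-MDSC_1 4 were higher and 2 lower. The dendritic list also holds the NK receptor Klrd1, which rose and is counted again among the T and NK markers below. Itgae (CD103) and Itgax (CD11c) were detected on no NN array and were at least 9.29-fold and 4.23-fold higher, and Clec10a rose 2.98-fold. The part of B cells and of dendritic cells in the class II values was not tested. Without G-MDSC_1 all 13 class II genes were again called higher in both fits.

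MHC class I and interferon-stimulated genes rose by less. Of 18 class I genes 12 rose and 1 fell. Nlrc5, the class I counterpart of Ciita, rose 7.16-fold, Psmb9, an immunoproteasome subunit, 2.18-fold, and H2-M3 2.77-fold. B2m read 0.06 log2 higher and did not pass. Of 38 interferon-stimulated genes 28 rose and 1 fell (median 1.47 log2). Gbp2 and Gbp3, guanylate-binding proteins, rose 6.10-fold and 12.2-fold. Gbp2 read 13.48, 13.41, 13.30 and 14.05 against 10.88, 10.94 and 11.07, with the widest gap to NN on G-MDSC_4. Oasl2 rose 7.99-fold and Cxcl10, an interferon-induced chemokine, 8.13-fold. Ifit2, Rsad2 and Ifitm3, at 0.61, 0.42 and 0.03 log2, did not pass both fits.

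Sensing genes were higher in the main. Of 24 pattern recognition genes 16 rose and 3 fell, with 1 lower after median centring. Clec4n (Dectin-2), a receptor for fungal mannans, rose 20.6-fold from 7.02, 7.80 and 8.12 to 11.78, 11.96, 12.14 and 11.90. Tlr1 and Tlr6, which pair with TLR2, rose 14.7-fold and 3.36-fold, and Cd14, the co-receptor for endotoxin, 9.88-fold. Fc receptors rose in 3 of 6: Fcgr1, Fcgr4 and the inhibitory Fcgr2b, by 3.02-, 1.60- and 2.39-fold. Of the 3 probes of Fcgr2b 1 lay the other way, at -0.25 log2.

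Receptors and adhesion molecules that guide neutrophils moved in both directions. Of 12 chemoattractant receptors 5 rose and 2 fell. Cxcr2 rose 1.73-fold, but only 1.37-fold against NN_6 and NN_7 (adjusted p = 0.000285 and 0.0252). It read 14.39, 14.85, 14.93 and 14.68 against 13.48, 13.85 and 14.32, with NN_6 and NN_7 the highest NN arrays. Cxcr4 read 13.47, 12.44, 12.59 and 12.84 against 12.91, 13.25 and 13.44; the groups overlapped, and the background term removed the call (adjusted p = 0.0362 and 0.394). P2ry2, an ATP receptor, rose 4.32-fold and Cx3cr1, the fractalkine receptor, 2.79-fold. For Cx3cr1 the groups overlapped: G-MDSC_1 lay within the range of the NN arrays, and the other G-MDSC arrays lay above every NN array. The other probe of P2ry2 differed by 0.97 log2. Cxcr3 rose 3.40-fold. Among adhesion molecules 4 of 15 rose (26.7%) and 3 fell (20%), near the shares over all genes. Itgb7 rose 6.59-fold and Selplg (PSGL-1), the ligand of selectins, 2.16-fold. Itgam (CD11b), at -0.51 log2 over all NN arrays, was called only with the background term (-1.33, adjusted p = 0.0101). NN_6 and NN_7 were its highest NN arrays.

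With all arrays, the survival and stress genes called in both fits were higher in G-MDSC. Of 20 survival and apoptosis genes 10 rose and none fell. Bcl2a1d, an anti-apoptotic gene whose close copies may share the probe, rose 9.67-fold, Pim1, a survival kinase, 5.74-fold (low-background fold 8.77), and Pmaip1 (Noxa), which promotes apoptosis, 7.65-fold. The other probe of Pim1 differed by only 0.46 log2. Bcl2l1, at -0.85 log2, was not called in both. Of 21 genes of the unfolded protein and heat shock responses 9 rose and none fell. Without G-MDSC_1, 9 were higher and 3 lower. The median of this list was 0.50 log2, and 0.26 with the background term. Its summed intensity was 113330 on G-MDSC_1 and 62649 to 67817 on the other G-MDSC arrays. On NN_6 and NN_7 the sum was 60215 to 65303. Hspa5 (BiP), the chaperone of the endoplasmic reticulum, rose 4.89-fold, Dnajb9 3.88-fold and Ddit3 (CHOP) 3.18-fold.

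Metabolic genes were lower by small amounts, and these counts depended on the scaling. Of 22 glycolysis and hypoxia genes 12 fell and 5 rose, and after median centring 6 and 4. Hk2 and Hk3, hexokinases, fell 2.60-fold and 2.56-fold, Gys1, glycogen synthase, 3.43-fold (detected on 2 G-MDSC arrays), and the glucose transporter Slc2a1 rose 4.47-fold. Hk2 read 10.89 to 11.28 in G-MDSC against 12.15, 12.44 and 12.70, with no overlap. Of 39 respiratory chain genes 19 fell and 1 rose, but only 6 fell after median centring, where the median without the background term turned from -0.33 to 0.09 log2. Atp5o and Uqcrb, of ATP synthase and complex III, fell 2.70-fold and 2.17-fold. Of 22 genes of cholesterol and fatty acid metabolism 9 fell, with the synthesis enzymes Msmo1 and Sqle 3.28-fold and 2.95-fold lower and their activator Srebf2 2.76-fold lower, and 2 rose. Abcg1, which exports cholesterol, rose 3.59-fold. Of 31 ribosomal protein genes 1, Rps9, passed both fits, and without G-MDSC_1 a further 3 were lower.

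Several lists held changes in both directions, to be read against the shares over all genes of 21% higher and 21.8% lower. The S100 gene S100a4 rose 11.3-fold, detected on 2 NN arrays, S100a10 rose 2.16-fold, and S100a1 and S100a13 fell 2.35- and 1.99-fold (2 and 3 of 9). Of 22 lysosomal genes 9 rose and 2 fell, led by the cathepsin Ctss, 3.94-fold higher. Ctss cleaves the class II invariant chain. In the TGF-beta list 5 of 16 rose and 3 fell. Tgif1, a repressor of SMAD signalling, rose 4.84-fold and Tgfbi 2.29-fold. For Tgif1 the log2 difference was 2.28, and 1.64 without G-MDSC_1. Eng, an endothelial co-receptor, fell 4.08-fold (low-background fold 2.57), detected on 1 G-MDSC array. Among 13 eicosanoid genes 4 rose and 5 fell, with Pla2g7 and Ltc4s 3.46- and 3.86-fold higher. Among 25 actin and motility genes 6 rose (24%) and 7 fell (28%), near the shares over all genes, and 2 fell after median centring. Capg, an actin-capping protein, fell 4.48-fold, and Vcl, vinculin, 3.11-fold. Iron and heme genes fell in 7 of 17 and rose in 4: Tfrc, the transferrin receptor, fell 7.60-fold and Fech, of heme synthesis, 8.48-fold, with another probe at -1.14 log2. Steap4, a metalloreductase, rose 7.88-fold.

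The largest falls belonged to red cells and platelets. All 21 erythroid genes tested fell, with a median of -4.76 log2 (-4.33 with 12 genes at their bound). These 12 were detected on no G-MDSC array and passed the detection filter through NN alone, so their direction was fixed by the filter. Slc4a1 (band 3), the anion exchanger of the red cell membrane, read 6.21, 6.03, 6.95 and 7.67 in G-MDSC and 14.64, 14.86 and 14.95 in NN, 275-fold lower (low-background fold 271, log2 difference -8.10 ± 0.23 SE, adjusted p = 9.74e-12 and 5.81e-09). Aqp1, a water channel, fell 171-fold, detected on 2 G-MDSC arrays, and Alas2, the first enzyme of erythroid heme synthesis, 96.7-fold. Klf1, the erythroid Krüppel-like factor, fell 47.5-fold and was detected on 1 G-MDSC array. Trim10, Slc38a5, Dmtn and Car2 were detected on no G-MDSC array and were at least 58.3-, 47.9-, 22.7- and 38.1-fold lower. The other probe of Trim10 differed by -4.25 log2. The summed erythroid intensity was 3033 to 15725 in G-MDSC and 129700 to 148800 in NN, 129940 to 143540 on NN_6 and NN_7, and G-MDSC_1 was the lowest. The alpha-globin gene Hba-a1, named after its values were seen, made up 71.1 to 89.7% of the sum in G-MDSC and 44.4 to 50.9% in NN. Without it the sums (here and below, left out after seeing the data) were 877 to 1618 and 63687 to 82780. Heme genes Fech and Uros, antioxidant Prdx2 and cell cycle genes are active in erythroblasts, and the part of erythroid cells in their falls was not tested.

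Platelet and megakaryocyte genes fell in 8 of 10. Of these 10, 2 were detected on no G-MDSC array, so the detection filter fixed their direction. Ppbp, platelet basic protein, had the largest fall of all, 297-fold: it read 4.72, 5.38, 5.44 and 6.02 in G-MDSC, detected on 2 of 4 arrays, and 13.06, 13.40 and 14.36 in NN. Pf4, platelet factor 4, fell 80.6-fold and Gp5, of the von Willebrand receptor complex, 71.3-fold, detected on 1 G-MDSC array. Treml1, a granule receptor of platelets, was detected on none and was at least 56.9-fold lower against all 7 NN arrays (fitted low-background fold 52.2). Alox12, platelet lipoxygenase, fell 65.7-fold on its brighter probe (low-background fold 41.3). Its other probe differed by -1.31 log2. The platelet sum was 723 to 1157 in G-MDSC and 22338 to 49282 in NN. Erythroid and megakaryocytic genes share the factor GATA1, and its core AGATAA is shown in capitals in the promoters of 1 gene of each lineage, cut as above.
Alas2: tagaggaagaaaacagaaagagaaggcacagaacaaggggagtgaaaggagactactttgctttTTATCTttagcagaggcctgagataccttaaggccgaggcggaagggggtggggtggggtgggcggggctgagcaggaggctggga
Gp5: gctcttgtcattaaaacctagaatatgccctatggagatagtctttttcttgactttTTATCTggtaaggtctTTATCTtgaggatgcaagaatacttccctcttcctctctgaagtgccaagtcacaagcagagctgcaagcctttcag
These windows are chrX:150547267-150547416 on the plus strand and chr16:30310782-30310931 on the minus strand. Alas2 holds 1 match, beginning 86 bases before the start, and Gp5 holds 2, the first beginning 93 bases before it. In the windows of 300 bases 7 of 19 erythroid promoters (36.8%), 4 of 9 platelet promoters (44.4%) and 11.2% of all hold these letters.

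Other marrow populations were lower too. Of 11 markers of eosinophils, basophils and mast cells 8 fell, and 2 of the 11 were detected in 1 group alone. Prg2, eosinophil major basic protein, read 9.44, 5.48, 6.98 and 7.60 against 14.03, 14.30 and 14.87, 128-fold lower, with a wide spread among the G-MDSC arrays (SD 1.64). The log2 difference of Prg2 was -7.00, -7.69 without G-MDSC_1 and -6.37 without G-MDSC_2. Epx, eosinophil peroxidase, was detected on no G-MDSC array and was at least 12.1-fold lower, and Ear6, an eosinophil ribonuclease, fell 34.1-fold. For Ear6 the log2 difference was -5.09, and -5.81 without G-MDSC_1. Endothelial markers fell in 8 of 11, including Ly6c1, 5.03-fold lower, which myeloid cells also express. Of these 11, 5 were detected in 1 group alone, so the detection filter fixed their direction. All 5 stromal markers tested fell, among them Sparc, a matrix protein, at least 5.66-fold. None of the 8 stromal markers on the array was detected on any G-MDSC array. The 5 stromal markers tested passed the detection filter through NN alone, so their direction was fixed by the filter. The sums were 1176 to 2421 against 23942 to 38378 for eosinophils, basophils and mast cells, 4083 to 10437 against 27934 to 35957 for endothelium and 205 to 223 against 1439 to 5528 for stroma. Single genes made up most of these sums in NN. Ly6c1 was 92.1 to 95.7% of the endothelial sum in NN and 87.9 to 94.9% in G-MDSC, and without it the sums were 459 to 535 in G-MDSC and 1194 to 2799 in NN. Without Prg2 the eosinophil, basophil and mast cell sums were 1132 to 1726 and 5515 to 8608, and without Cxcl12 the stromal sums were 178 to 192 and 422 to 1056.

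Lymphocyte markers set G-MDSC_1 apart. Of 16 B and plasma cell genes 3 fell with all arrays (18.75%, near the share over all genes) and 12 without G-MDSC_1. Vpreb3 and Vpreb1, of the precursor B-cell receptor, fell 12.2-fold and 7.72-fold, and Vpreb3 read 9.59 on G-MDSC_1 against 4.85 to 5.80 on the others. Its log2 difference was -3.61, and -4.70 without G-MDSC_1. T and NK markers summed to 19045 on G-MDSC_1, 5818 to 6669.9 on the other 3 and 12998 to 15273 on NN. Cd3d made up 83.6 to 88.0% of that sum in NN, and without it the sums were 15095 on G-MDSC_1, 1569.6 to 2148 on the other 3 and 1707 to 2249 on NN. Cd3e read 10.39 on G-MDSC_1 and 5.19 to 5.46 on the others, against 4.56, 5.07 and 5.48 in NN. In this list 3 of 15 rose (20%, near the share over all genes) and 1 fell, and without G-MDSC_1 5 fell. Klrd1, an NK receptor, rose 6.90-fold (10.02 on G-MDSC_1, 7.40 to 7.93 on the others; log2 difference 2.79, and 2.18 without G-MDSC_1). Cd3d fell 2.92-fold. Macrophage and monocyte markers overlapped between the groups, at 20157 to 24199 and 15180 to 29873. Of 18, 6 rose, led by Ly86 (MD-1, 5.86-fold), and 2 fell, led by Siglec1 (3.24-fold).

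**Figure D5:**
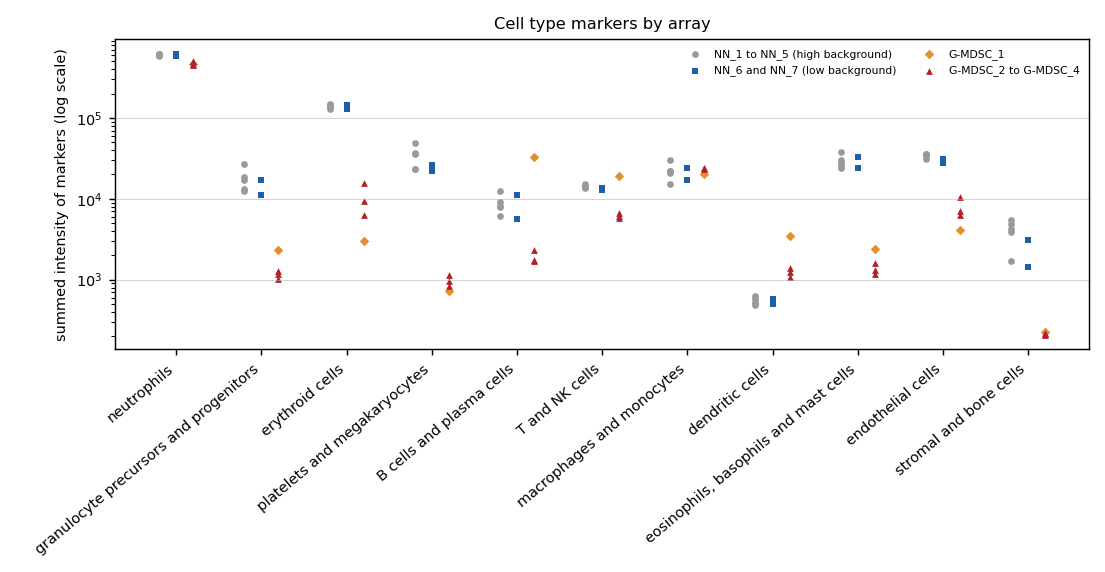
Summed background-corrected intensity of the named markers of each cell type on the array (log scale) on each of the 11 arrays. Erythroid, platelet, eosinophil, endothelial and stromal markers are lower on all G-MDSC arrays, and G-MDSC_1 alone has B-cell markers above NN, at 32570.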

How the data were processed

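The deposited table without normalization holds mean bead signals as intensities on a linear scale, each with a detection p-value, per the file headers, exported from GenomeStudio per the submitters' processing notes. The RNA was labelled with biotin per the labels, whose treatment and extraction protocols describe tissue biopsies and were not used. The authors' deposited normalized table, also linear intensities, served as an alternative. For the 11 arrays neqc (limma 3.58.1, R 4.3.3, offset 16) subtracted background, applied quantile normalization and took log2. Probes were kept where at least 3 arrays had a detection p under 0.01 (12699, of which 783 carry no gene name here). Each gene took its brightest probe, since 2316 of 8643 genes had several, 59 of them with probes called in opposite directions. Differences were fitted with limma (lmFit, eBayes with trend, two-sided, Benjamini-Hochberg over all genes), with 9 residual degrees of freedom, and 8 with background class as a term. Where no array of the dimmer group detected a gene, the fold is a bound, against the higher of its own value and the lowest detected value on each array. Such a gene passed the detection filter through the other group alone, which fixed its direction. Bounds were taken over all 7 NN arrays, and a low-background fold can lie below them. The fit with background class was also run on simulated data of the 8643 genes, with independent noise and a small background effect. It recovered 181 of 200 genes given a large change, with 12 false calls. Many more genes differed in the real data, so these rates do not carry over to it. Detected probes numbered 10660 to 11807 per NN array and 11283 to 11435 per G-MDSC array. Precision rests on how many arrays each group has.

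The 41 gene lists and the comparison itself were chosen with earlier results of these data known. Genes named are the 15 largest rises and falls called in both fits without overlap of arrays and detected throughout the higher group (1 clone name passed over), up to 4 called members per list, 18 given by name, and members shown as not passing. Figures were drawn with matplotlib.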

Additional observations from a re-analysis of the deposited data

Results flagged for a closer look

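Of 350 groups of arrays examined (4 G-MDSC or 7 NN arrays, for each gene and marker sum given above), 24 had 1 array far from the rest by Dixon's ratio at its 95% critical value. Chance alone flags about 1 in 20 groups, and the genes are not independent of each other. G-MDSC_1 accounted for 15 of the 24 and NN arrays for 4.

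Lymphocyte and dendritic markers were high on G-MDSC_1. The B-cell sum was 32570 there and 1727 to 2316 on the other G-MDSC arrays, the T and NK sum 19045 against 5818 to 6669.9, and the dendritic sum 3456 against 1093 to 1415. Klrd1 counts in the T and NK sum and in the dendritic sum. The macrophage and monocyte sum was lower, 20157 against 23668 to 24199. Single genes with a high value on G-MDSC_1 were Cd79a (12.55 against 7.26 to 8.15 log2), Cd3e (10.39 against 5.19 to 5.46) and Hvcn1 (11.84 against 9.38 or lower).

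Of the myeloid genes, the chemokines Ccl4 (14.71 against 12.22 to 12.56) and Cxcl2 (14.66 against 13.33 to 13.52) and the decoy receptor Il1r2 (14.15 against 12.86 to 13.03) were highest on G-MDSC_1. Csf3r (14.95 against 15.41 to 15.46) and Padi4 (6.74 against 8.67 to 8.94) were lowest there. Gp5, Klf1 and Slc38a5 read 5.48, 5.76 and 5.18 on G-MDSC_1, near the floor, with the other G-MDSC arrays lower.

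The other G-MDSC arrays had 5 such values. G-MDSC_2 was lowest for Ier3 (14.30) and Junb (15.80), G-MDSC_3 highest for Dmtn (4.53, not detected), and G-MDSC_4 highest for Kif11 (5.80) and S100a1 (7.82). Among NN arrays, NN_4 was highest for Cd14 (10.51) and lowest for Cebpe (13.43), NN_1 highest for Gfi1 (9.62) and NN_6 lowest for Cxcr4 (12.91).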

How the results depend on the processing

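The count of called genes (4999) ranged from 3433 within the low-background arrays to 5336 against the high-background NN arrays, and was 4882 with the replicate number as a block. It stayed within 1.5 times under every alternative run. Leaving out 1 array gave 4515 to 5274 genes, 3017 to 4773 in the fit with background class (4077), and 2830 to 4234 called in both fits (3698). The lowest of the last 2 ranges came without NN_6 and the highest of all 3 without G-MDSC_1. The main fits took replicate numbers as not pairing the samples. Same-numbered arrays deviated from their group means with correlations of 0.16, -0.28, 0.02 and 0.09, and different-numbered arrays with -0.30 to 0.32. So few correlations can neither show nor exclude pairing. A fit with both replicate number and background class could not be run. Of 164 genes given in the report, 143 kept direction and call in all 21 alternatives run. Reversed values, all of genes given as not passing both fits, were 0.0761 log2 for Cxcr4 and 0.25 for Vegfa after median centring, -0.0148 for Nfkbie and 0.40 for Vegfa with probes averaged, 0.000512 for Vegfa against the high-background NN arrays, 0.0264 for Vegfa with the replicate block, and -0.54 for Pcna in both comparisons with NN_6 and NN_7. Leaving out 1 array gave -0.0258 (without G-MDSC_4) to 0.0928 log2 for Ifitm3, -0.188 (without G-MDSC_1) to 0.2945 for Pcna and -0.257 to 0.00796 (without G-MDSC_4) for Vegfa. List medians turned for adhesion molecules (-0.0945 in both comparisons with NN_6 and NN_7) and, after median centring, for respiratory chain (0.0929), iron and heme (0.0165) and actin genes (0.15). Median centring also moved calls in both fits to 7 higher adhesion genes, 5 higher Fc receptors, 3 lower granulopoiesis factors and 3 lower eicosanoid genes. Among named genes whose call was lost within the low-background arrays alone are Cx3cr1 (adjusted p = 0.0733), Cxcr2 (0.0570) and Vpreb3 (0.0564). Detection limits the dim genes: for those detected on no array of the dimmer group a bound is given.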
